A study of Mus musculus with 6 samples.

Results

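The tricarboxylic acid (TCA) cycle oxidises acetyl groups from pyruvate, fatty acids and amino acids inside mitochondria and hands the electrons to the respiratory chain as NADH and succinate. Because NADH cannot cross the inner mitochondrial membrane, the malate-aspartate and glycerol phosphate shuttles carry its electrons in from the cytosol, where lactate dehydrogenase is the other main route that turns NADH back into NAD+. Anaplerosis is the refilling of the cycle, for example from glutamine, and citrate that leaves the mitochondrion feeds lipid synthesis in the cytosol.

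The genes described here are 35 enzymes and carriers of these routes, chosen by name from the 32285 genes of the deposited table, and each of them matched 1 gene. They comprise the TCA enzymes from citrate synthase to malate dehydrogenase, both NADH shuttles, glutamate entry, the malic enzymes and citrate export. Both groups held wild-type (WT) radial glial progenitors (RGP), the stem cells of the developing cortex, from mouse neocortex at stage E10.5. Dissociated cells were cultured, and about 2 hours later received either GSK2837808A, an inhibitor of lactate dehydrogenase (3 libraries, GSK), or an equal volume of the solvent DMSO (3 libraries, DMSO). The labels give the inhibitor at 100 mM, a dose that was not verified. After about 24 hours, some 1000 living cells with the surface protein CD133 were sorted per sample, and bulk RNA was sequenced with the full-length Smart-seq2 protocol. The comparison asks how transcript levels differ when lactate production is inhibited.

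The libraries held between 7187089 and 10224348 reads. Radial glial markers were present in every library, with a summed level of 20447 to 21089 normalised reads in DMSO libraries and 10942 to 13568 in GSK for 10 genes, of which 8 fell. Vim makes up most of the GSK sum and, like Emx2, did not pass (Vim means 10127 in DMSO and 9486 in GSK). The sum therefore understates the fall of the other 8, such as Fabp7 (means 2961 and 219). Markers of other cells were present too. The 11 erythroid markers, mostly globins, summed to 2472 to 21035 normalised reads in DMSO libraries and 187021 to 277543 in GSK, or 2.29% to 2.98% of GSK reads. The 10 microglia and macrophage markers summed to 97.9 to 385 in DMSO and 562 to 1272 in GSK, and the 7 neuron markers to 6902 to 14060 (DMSO) and 20450 to 24803 (GSK). Of the neuron markers, Tubb3, which makes up most of the GSK sum, and Stmn2 rose, Neurod6 fell and 4 did not pass. The 5 intermediate progenitor markers summed to 828 to 1187 (DMSO) and 1962 to 2740 (GSK). Btg2 and Elavl4 make up most of these sums, and 4 of the 5 rose while Neurog2 did not pass. The 6 mesenchyme markers summed to 25045 to 32049 in DMSO and 14351 to 24079 in GSK. The collagen genes Col1a1, Col1a2 and Col3a1 make up most of these sums. Col1a1 and Col3a1 fell, and 4 of the 6 did not pass, among them Pdgfrb (means 904 in DMSO and 923 in GSK). The 6 endothelial markers summed to 82.8 to 142 over all libraries. The part of these cells in the results below was not tested, and in bulk samples fewer cells of a type and less RNA per cell cannot be told apart.

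The pathway did not move as a block. Of the 35 genes, 3 rose and 9 fell in GSK libraries, and 23 did not pass the test (limma, adjusted p below 0.05 by the Benjamini-Hochberg method over all 15073 genes tested). The largest changes were a more than 2-fold rise of Idh1, for cytosolic isocitrate dehydrogenase, and more than 2-fold falls of Suclg2, Slc25a13 and Slc25a10, which encode 1 form of succinyl-CoA ligase, an aspartate-glutamate carrier and the dicarboxylate carrier. In several places 1 subunit or isozyme moved while its partner did not pass the test or moved the other way. The 12 changed genes were 34.3% of the list, against 36.1% of all genes tested. Rises made up 8.57% of the list and falls 25.7%, beside 17.0% and 19.1% of all genes. For 18 of the 35 genes (51.4%) the ranges of the 2 groups did not overlap, beside 47.2% of all genes. The median log2 fold change was -0.01 over the list and 0.01 over all genes tested. In total count and median the list stood near the background, with a smaller share of rises and a larger share of falls. The counts depend on 1 library: without GSK replicate 1, 20 of the 35 genes passed (57.1%, beside 41.8% of all genes), and the median was 0.10 over the list and 0.03 over all genes. Rises were then 25.7% of the list, beside 20.4% of all genes, and falls 31.4%, beside 21.4%. The smaller share of rises thus depends on that library, and the difference in shares was not tested.

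All 35 genes passed the filter of a mean of at least 10 normalised reads. Each of them but the malic enzyme gene Me3 had at least 50 reads in every library, and Me3 had as few as 6. No label says that replicates are separate cultures or animals. The p-values therefore reflect how far these samples spread, and that spread may be technical.

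**Figure D1:**
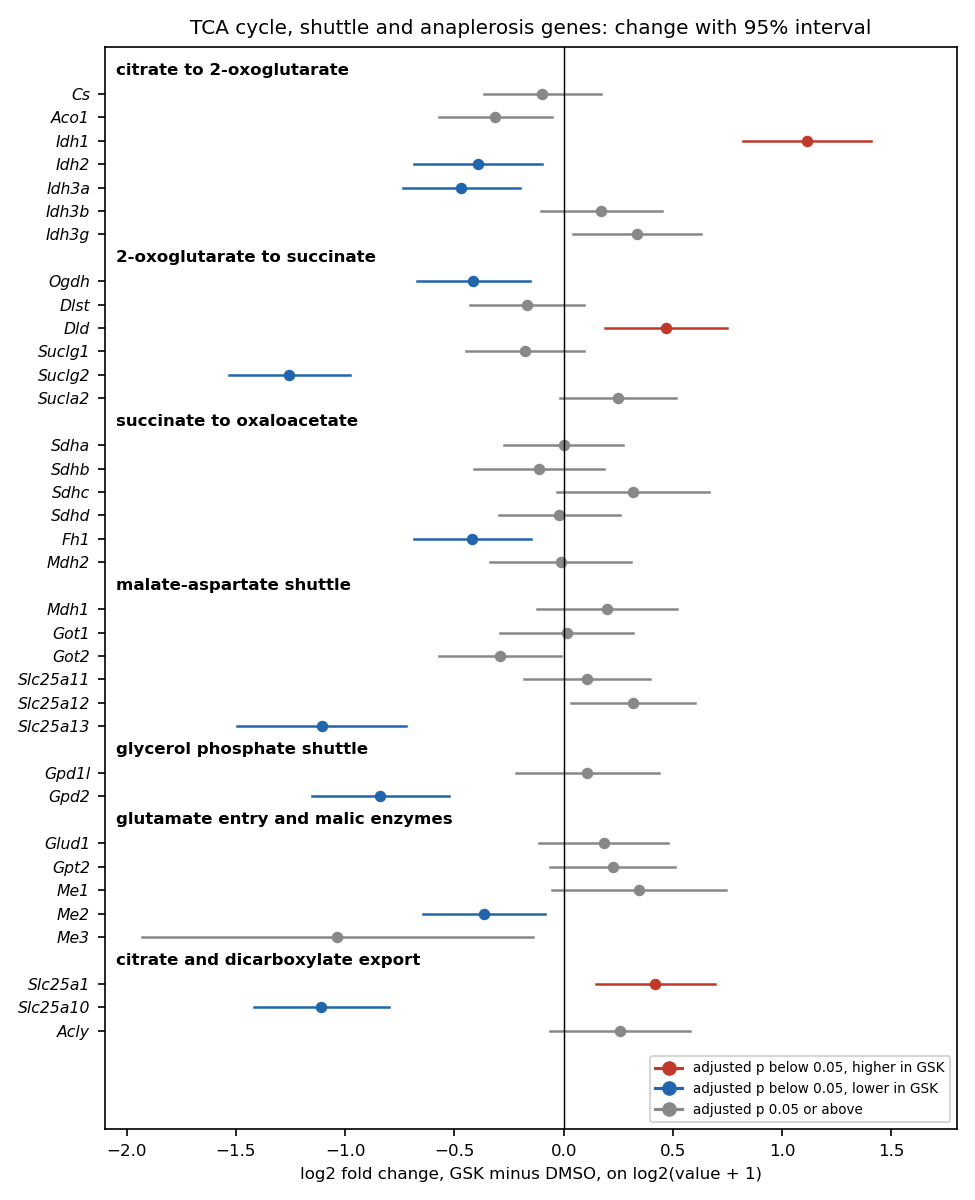
Log2 fold change of each of the 35 genes (horizontal axis, GSK minus DMSO on the log2(value + 1) scale) with its 95% interval from limma, grouped by role. Red and blue points passed the test as higher (3) and lower (9) in GSK, and the grey points of the other 23 genes did not.

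The 4 genes that passed the test with more than a 2-fold change are shown with their promoters, as the stretch of DNA at which transcription starts. Each sequence runs from 250 bases before to 50 bases after a transcription start annotated by RefSeq on GRCm38.p6, 5′ to 3′ on the gene's own strand. Capitals mark matches to the motifs searched.

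Idh1, chr1:65186430-65186729, minus strand: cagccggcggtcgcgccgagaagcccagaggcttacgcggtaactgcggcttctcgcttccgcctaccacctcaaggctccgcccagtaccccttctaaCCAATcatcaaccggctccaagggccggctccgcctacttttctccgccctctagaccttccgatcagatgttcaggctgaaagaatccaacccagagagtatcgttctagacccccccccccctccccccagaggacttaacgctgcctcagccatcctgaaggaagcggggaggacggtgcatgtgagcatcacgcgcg
Suclg2, chr6:95718797-95719096, minus strand: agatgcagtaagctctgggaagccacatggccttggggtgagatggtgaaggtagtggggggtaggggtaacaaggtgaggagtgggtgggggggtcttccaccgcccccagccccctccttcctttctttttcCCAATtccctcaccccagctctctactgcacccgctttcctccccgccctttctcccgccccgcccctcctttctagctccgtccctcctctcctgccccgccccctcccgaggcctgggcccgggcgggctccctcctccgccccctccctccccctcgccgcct
Slc25a13, chr6:6217124-6217423, minus strand: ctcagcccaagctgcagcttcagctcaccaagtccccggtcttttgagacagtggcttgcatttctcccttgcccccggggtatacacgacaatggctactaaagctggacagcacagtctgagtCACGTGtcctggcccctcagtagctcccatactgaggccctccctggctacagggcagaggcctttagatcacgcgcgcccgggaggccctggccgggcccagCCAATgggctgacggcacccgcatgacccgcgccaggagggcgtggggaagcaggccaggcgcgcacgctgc
Slc25a10, chr11:120491587-120491886, plus strand: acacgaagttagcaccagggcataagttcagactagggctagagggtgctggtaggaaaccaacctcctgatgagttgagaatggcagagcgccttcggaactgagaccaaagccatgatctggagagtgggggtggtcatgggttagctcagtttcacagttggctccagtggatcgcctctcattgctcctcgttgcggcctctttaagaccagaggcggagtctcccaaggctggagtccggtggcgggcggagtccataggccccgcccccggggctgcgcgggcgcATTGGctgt

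The motifs were the E-box CACGTG, the CCAAT box CCAAT, the core GCGCATGCG of nuclear respiratory factor 1, the site TCAAGGTCA of oestrogen-related receptors and the stress response element TGATGNAAT, on both strands. None of these contains another. Idh1, which has 2 annotated starts of which the first listed is shown, and Suclg2 each had a CCAAT box, beginning 151 and 116 bases before the start. Slc25a13 had an E-box 125 bases and a CCAAT box 22 bases before it, and Slc25a10 had a CCAAT box on the opposite strand 41 bases after it. The other Idh1 window held no match to any of the motifs, so a CCAAT box was common to the 4 windows shown but not to every annotated start. Promoters were found for 32 of the 35 genes, not for Idh3a, Sdhc and Me2. A CCAAT box stood in 19 of these 32 (59.4%), beside 41.1% of all 27025 genes with promoters of this length and 43.3% of the 11219 among them that were tested here. Its 19 carriers held 3 genes that rose (Idh1, Dld, Slc25a1), 6 that fell and 10 that did not pass. The E-box was found in 4 of the 32 (Slc25a1, Ogdh, Slc25a13 and Gpd1l; 12.5%), beside 8.09% of all genes and 11.3% of those tested. The nuclear respiratory factor 1 core was found in Ogdh (3.12%, beside 1.95% of all genes and 3.84% of those tested) and the receptor site in Sdhd (3.12%, beside 0.466% and 0.312%). The stress element was found in 0 of the 32, beside 1.08% of all genes and 0.571% of those tested. A match is a description of letters and not a binding site.

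Among the isocitrate dehydrogenase genes, cytosolic Idh1 rose, while mitochondrial Idh2 and Idh3a fell and mitochondrial Idh3b and Idh3g did not pass. Idh1 encodes the NADP-linked enzyme of the cytosol and peroxisomes, which makes NADPH (chromosome 1, 65158616 to 65186500, GRCm38). It stood at 2369, 2098 and 1962 normalised reads in DMSO replicates 1 to 3 and at 4148, 4508 and 5291 in GSK replicates 1 to 3. All GSK libraries thus lay well above all DMSO libraries. The means were 2143 ± 207 and 4649 ± 584 (SD, n = 3 per group). The log2 fold change was 1.11 (standard error 0.14, adjusted p = 3.63e-06).

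Idh2 encodes the NADP-linked enzyme of mitochondria. It went the other way, from 2623, 2822 and 2671 normalised reads in DMSO to 1708, 2162 and 2365 in GSK libraries. The groups did not overlap, but the third GSK library came close to the lowest DMSO library. The log2 fold change was -0.39 (standard error 0.14, adjusted p = 0.0348). Idh2 did not pass without any 1 of DMSO replicates 1, 2 and 3 or GSK replicate 2 (adjusted p = 0.0822, 0.134, 0.0797 and 0.0772).

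The NAD-linked enzyme of the cycle itself, isocitrate dehydrogenase 3, is built from an alpha, a beta and a gamma subunit, of which alpha carries the main catalytic role. Idh3a, the alpha gene (chromosome 9, 54586334 to 54604661), had 808, 802 and 762 normalised reads in DMSO libraries and 509.8, 575 and 636 in GSK libraries. Every GSK library lay below every DMSO library, with a log2 fold change of -0.47 (standard error 0.13, adjusted p = 0.00713). The genes of the beta and gamma subunits did not pass, with log2 fold changes of 0.17 for Idh3b (95% interval -0.10 to 0.45) and 0.34 for Idh3g (0.04 to 0.63, adjusted p = 0.0677). Idh3g was called higher by DESeq2 (adjusted p = 0.0499). Without GSK replicate 1, limma called both higher (adjusted p = 0.024 for Idh3b and 0.00128 for Idh3g). The log2 ratio of Idh3a to Idh3g was -0.23, -0.06 and -0.15 in DMSO and -0.84, -0.95 and -1.06 in GSK libraries, and that of Idh3a to Idh3b was -0.59, -0.60 and -0.70 against -1.20, -1.31 and -1.31. Neither ratio overlapped between the groups. These ratios were chosen after the values were seen and carry no test.

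Cs, for the citrate synthase that opens the cycle, had 2726, 2735 and 2623 normalised reads in DMSO libraries and 2409, 2538 and 2607 in GSK libraries. Its GSK values lay below its DMSO values by less than the test could separate, with a log2 fold change of -0.10 and a 95% interval of -0.37 to 0.17. Aco1, for the cytosolic aconitase that also acts as an iron-sensing RNA-binding protein, was just outside the threshold. It had 821, 865 and 798 normalised reads in DMSO libraries and 712, 669.8 and 621 in GSK libraries (log2 fold change -0.31, adjusted p = 0.0547). Aco1 was called lower by edgeR (adjusted p = 0.0376) and DESeq2 (0.0464) and without GSK replicate 1 (0.0101).

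The 2-oxoglutarate dehydrogenase complex joins 3 enzymes named E1, E2 and E3, and its genes diverged as well. Ogdh, for the E1 enzyme that decarboxylates 2-oxoglutarate, had 1023, 1074 and 1174 normalised reads in DMSO libraries and 839, 855 and 761 in GSK libraries. No GSK library reached a DMSO library, and the log2 fold change was -0.41 (standard error 0.12, adjusted p = 0.0132). Without DMSO replicate 3 Ogdh no longer passed (adjusted p = 0.0667). Dlst, for E2, had a log2 fold change of -0.17 (95% interval -0.43 to 0.09).

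Dld encodes E3, which the pyruvate and branched-chain dehydrogenase complexes and the glycine cleavage system use too. It rose, from 993, 898 and 807 normalised reads in DMSO to 1076, 1312 and 1349.7 in GSK libraries. The lowest GSK library was near the highest DMSO library, and the log2 fold change was 0.47 (standard error 0.13, adjusted p = 0.00938). It did not pass without DMSO replicate 3 (adjusted p = 0.0595) or GSK replicate 2 (0.0603). The log2 ratio of Ogdh to Dld was 0.04, 0.26 and 0.54 in DMSO and -0.36, -0.62 and -0.83 in GSK libraries, again chosen after the values were seen.

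Succinyl-CoA ligase makes GTP or ATP according to which beta subunit joins the shared alpha subunit. Suclg2, the gene of the GTP-forming beta subunit (chromosome 6, 95473009 to 95718800), showed the largest fall of the 35 genes by fitted fold change. Its level was 603, 554 and 597 normalised reads in DMSO libraries and 261, 229 and 244 in GSK libraries, so that the groups were far apart and tight within. The mean went from 585 ± 26.7 to 244 ± 15.9 (SD, n = 3 per group). The log2 fold change was -1.26 (standard error 0.13, adjusted p = 3.41e-07).

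Sucla2, the gene of the ATP-forming beta subunit, had 919, 912 and 843 normalised reads in DMSO libraries and 949, 1064 and 1176 in GSK libraries. All GSK values were higher, though not past the threshold (log2 fold change 0.25, adjusted p = 0.135). Leaving out GSK replicate 1 gave a call (adjusted p = 0.0154). The alpha gene Suclg1 had a log2 fold change of -0.18 (95% interval -0.45 to 0.09). Per length of transcript, the Suclg2 level was 0.435 ± 0.0333 of the Sucla2 level in DMSO and 0.154 ± 0.0243 in the GSK libraries (SD, n = 3).

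The 4 subunits of succinate dehydrogenase, which is at once a TCA enzyme and complex II of the respiratory chain, gave no call in limma, edgeR or DESeq2. Of all genes tested, limma called 36.1%. At an unadjusted p below 0.05 stood 0 of the 4 in limma and 1, Sdhc, in each of the other tools. Log2 fold changes were 0.00 for Sdha, -0.11 for Sdhb, 0.32 for Sdhc and -0.02 for Sdhd, with 95% intervals of -0.27 to 0.27, -0.41 to 0.19, -0.03 to 0.67 and -0.30 to 0.26. In the first GSK library Sdhb stood at 1437 normalised reads, against 1948 and 2062 in the other two. Without that library Sdhc was called higher (log2 fold change 0.55, adjusted p = 0.000604).

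Fh1, for the fumarase that hydrates fumarate to malate, fell. It had 992, 929 and 1077 normalised reads in DMSO libraries and 662, 775 and 812 in GSK libraries. The groups did not overlap, and the log2 fold change was -0.42 (standard error 0.13, adjusted p = 0.0154). It was not called without DMSO replicate 1 (adjusted p = 0.05 when rounded) or DMSO replicate 3 (0.0747). Mdh2, for the mitochondrial malate dehydrogenase that closes the cycle, had a log2 fold change of -0.01 (95% interval -0.34 to 0.31).

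**Figure D2:**
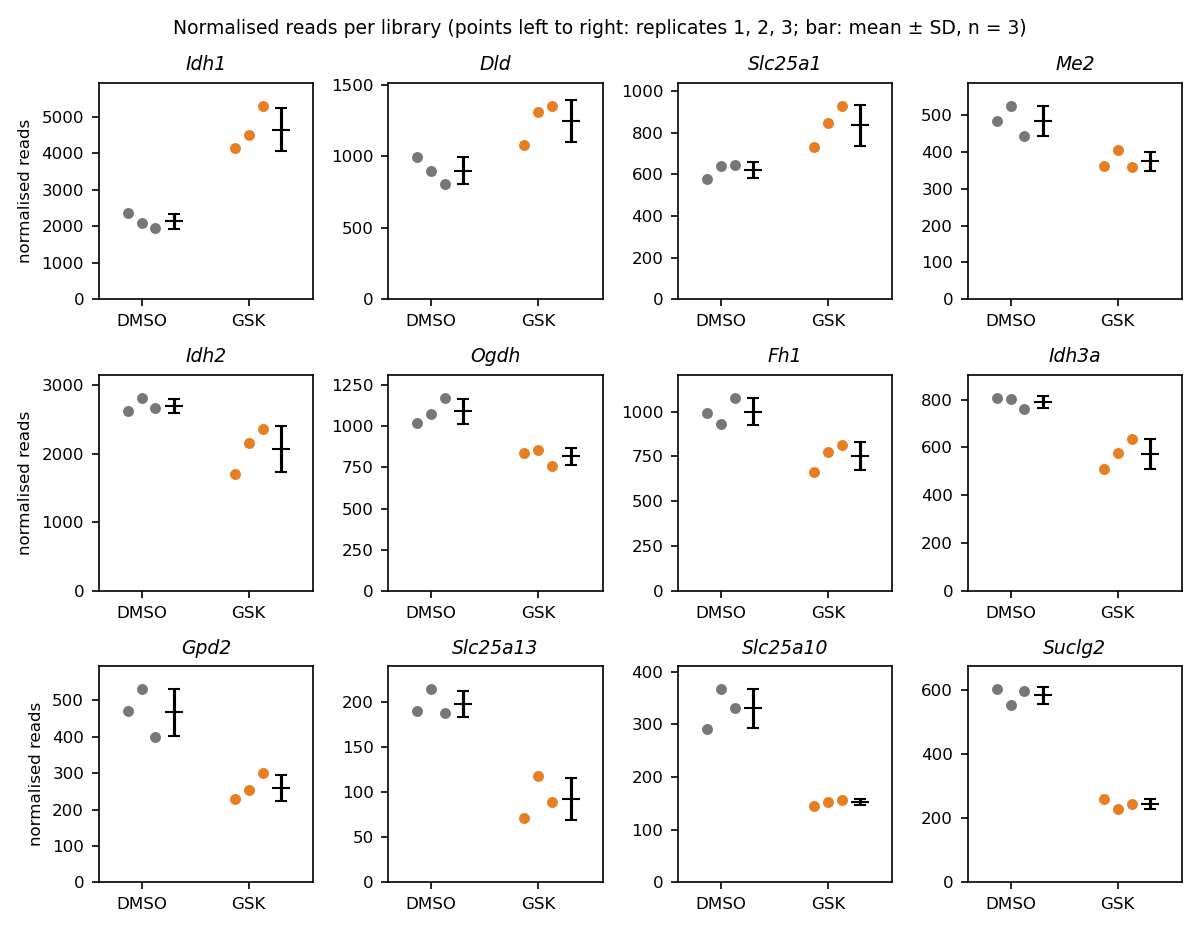
Normalised reads (vertical axes, from 0) of the 12 genes that passed the test, in each DMSO (grey) and GSK (orange) library, with mean and SD beside them. The 3 genes that rose come first, and in all 12 panels the groups do not overlap, as for Suclg2, where DMSO lies between 554 and 603 and GSK between 229 and 261.

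In the malate-aspartate shuttle, 1 of 6 genes changed (16.7%, beside 36.1% of all genes tested). Slc25a12 and Slc25a13 encode the calcium-regulated aspartate-glutamate carriers aralar and citrin, which export aspartate from mitochondria. Slc25a13 (chromosome 6, 6041218 to 6217173) fell from 190.1, 214 and 188 normalised reads in DMSO to 71.7, 118 and 89.1 in GSK libraries. The highest GSK library was far below the lowest DMSO library, with a log2 fold change of -1.11 (standard error 0.19, adjusted p = 9.79e-05).

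Slc25a12 had 503.5, 472 and 572 normalised reads in DMSO libraries and 554, 659 and 722 in GSK libraries. The groups overlapped and the gene did not pass (log2 fold change 0.32, 95% interval 0.03 to 0.60, adjusted p = 0.076). Leaving out GSK replicate 1 gave a call as higher (adjusted p = 0.0059). Per length of transcript, Slc25a12 stood at 1.29 ± 0.208 times the Slc25a13 level in DMSO and 3.51 ± 0.662 times in the GSK libraries (SD, n = 3).

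The enzymes of the shuttle did not pass. Mdh1 and Got1, for the cytosolic malate dehydrogenase and aspartate aminotransferase, had log2 fold changes of 0.20 (95% interval -0.12 to 0.52) and 0.01 (-0.29 to 0.32). Got2, for the mitochondrial aminotransferase, had -0.29 (-0.57 to -0.01, adjusted p = 0.0987), and Slc25a11, for the carrier that exchanges malate for 2-oxoglutarate, 0.11 (-0.18 to 0.40). Of these, Mdh1 passed as higher once GSK replicate 1 was left out (0.39, adjusted p = 0.00426), and Got2 as lower once GSK replicate 3 was (-0.42, adjusted p = 0.0182). Got2 was also called lower when all libraries were scaled to equal totals. The protocol does not mark strand, and 8.92% of the exon bases of Slc25a11 lie opposite exons of Rnf167, which had a mean of 465 normalised reads.

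The glycerol phosphate shuttle pairs a cytosolic dehydrogenase with Gpd2, whose product passes electrons from glycerol phosphate to ubiquinone at the inner membrane. Gpd2 (chromosome 2, 57237635 to 57370719) had 469.5, 530.1 and 399.6 normalised reads in DMSO libraries and 229, 253 and 299 in GSK libraries. All GSK values were lower, with a log2 fold change of -0.84 (standard error 0.15, adjusted p = 0.000188). Of its exon bases, 7.44% lie opposite the noncoding A930012O16Rik, which had a mean of 20.4 normalised reads. Gpd1l, for a cytosolic glycerol phosphate dehydrogenase, had 141, 157 and 143 normalised reads in DMSO libraries and 150.2, 164 and 162 in GSK libraries. Its groups overlapped, and its log2 fold change was 0.11 (95% interval -0.22 to 0.44).

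Glutamate can enter the cycle through glutamate dehydrogenase (Glud1) or mitochondrial alanine aminotransferase (Gpt2), and neither gene passed. Their log2 fold changes were 0.18 (95% interval -0.11 to 0.48) and 0.22 (-0.06 to 0.51). The malic enzymes turn malate into pyruvate. Me2, for the NAD-linked mitochondrial form, fell from 482, 523 and 442 normalised reads in DMSO to 361, 403 and 359 in GSK libraries. The groups did not overlap, but the call was narrow (log2 fold change -0.36, standard error 0.13, adjusted p = 0.0373). Me2 did not pass without DMSO replicate 1, DMSO replicate 2, GSK replicate 2 or GSK replicate 3 (adjusted p = 0.0928, 0.175, 0.0653 and 0.0794), or with a filter at a mean of at least 1 (0.0593).

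Me1, for the cytosolic malic enzyme that makes NADPH, had 90.3, 70.5 and 109 normalised reads in DMSO libraries and 117, 111 and 109 in GSK libraries. Its lowest GSK library sat just above its highest DMSO library, and the gene did not pass (log2 fold change 0.34, adjusted p = 0.172). Me3, for the NADP-linked mitochondrial form, had 21.2, 14.6 and 23.2 normalised reads in DMSO libraries and 14.8, 5.51 and 8.49 in GSK libraries. At this depth its log2 fold change of -1.04 had a 95% interval of -1.93 to -0.14 (adjusted p = 0.0656), and leaving out GSK replicate 1 gave a call as lower (adjusted p = 0.0179).

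Carriers that export intermediates moved in opposite directions. Slc25a1, for the citrate carrier that supplies the cytosol with citrate, rose from 579, 638 and 646 normalised reads in DMSO to 732, 844 and 926 in GSK libraries. Every GSK value exceeded every DMSO value (log2 fold change 0.42, standard error 0.13, adjusted p = 0.0155). It did not pass without DMSO replicate 1, GSK replicate 2 or GSK replicate 3 (adjusted p = 0.0797, 0.0697 and 0.059).

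Slc25a10 encodes the dicarboxylate carrier, which exchanges malate or succinate for phosphate (chromosome 11, 120491840 to 120499187). It had 292, 367 and 332 normalised reads in DMSO libraries and 146, 153 and 157 in GSK libraries, so its GSK libraries lay close together and far below. The log2 fold change was -1.11 (standard error 0.15, adjusted p = 7.43e-06). Of its exon bases, 6.60% lie opposite the antisense gene Gm11788, which had a mean of 34.0 normalised reads.

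Acly encodes the ATP-citrate lyase that splits exported citrate into acetyl-CoA and oxaloacetate. Its level was 3807, 4267 and 3724 normalised reads in DMSO libraries and 5858, 4508 and 3914 in GSK libraries. The groups overlapped, with the first GSK library far above the rest, and the log2 fold change of 0.26 did not pass (95% interval -0.06 to 0.58, adjusted p = 0.206).

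By compartment, 11 of the 28 genes for mitochondrial proteins passed, 2 higher (7.14%) and 9 lower (32.1%), with a median log2 fold change of -0.11. The 11 were 39.3% of these genes, beside 36.1% of all genes tested (17.0% higher and 19.1% lower). Of the 7 genes for cytosolic proteins (Aco1, Idh1, Mdh1, Got1, Gpd1l, Me1 and Acly), Idh1 alone passed (14.3%), and their median was 0.20. The difference between compartments was not tested.

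Ratios of paired isozymes within a library do not depend on how libraries are scaled. For 7 pairs the log2 ratio was compared between groups, and in all 7 the DMSO and GSK values did not overlap. Of single genes tested, 47.2% did not overlap. The share among gene pairs in general was not computed, so the count of 7 has no background to be read against. The shift (GSK minus DMSO) was 1.51 for Idh1 to Idh2, from -0.34 ± 0.17 to 1.17 ± 0.11 (SD, n = 3 per group), and -1.50 for Suclg2 to Sucla2, from -0.61 ± 0.11 to -2.11 ± 0.22. For Slc25a12 to Slc25a13 it was 1.42, from 1.38 ± 0.23 to 2.80 ± 0.29, and for Gpd1l to Gpd2 it was 0.95, from -1.65 ± 0.15 to -0.70 ± 0.15. These 4 shifts are the large ones, each led by a gene that passed the test by itself.

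The shift was 0.71 for Me1 to Me2 (-2.43 ± 0.43 to -1.72 ± 0.12), 0.30 for Got1 to Got2 (-1.01 ± 0.12 to -0.71 ± 0.08) and 0.21 for Mdh1 to Mdh2 (-0.22 ± 0.14 to -0.01 ± 0.04). In the 5 pairs that match a cytosolic with a mitochondrial protein, the ratio was thus higher on the cytosolic side in GSK libraries. Each of the 7 two-sided exact permutation tests gave p = 0.1 (adjusted p = 0.1 over the 7 pairs), the smallest that 3 against 3 allows, so no pair could pass at 0.05.

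**Figure D3:**
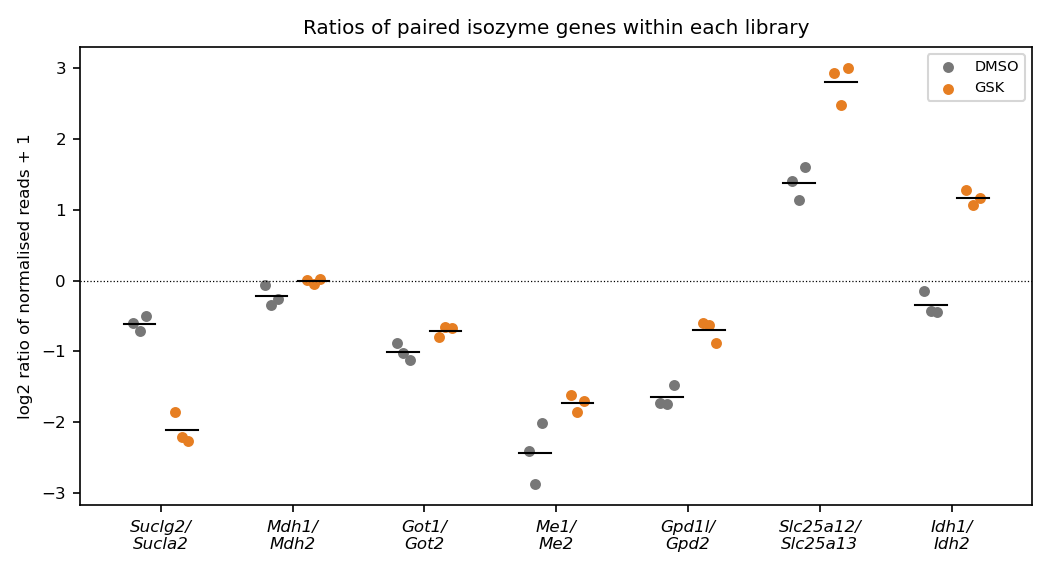
Log2 ratio of normalised reads plus 1 of 2 isozyme genes (vertical axis) in each DMSO (grey) and GSK (orange) library, with the group mean as a line, for 7 pairs ordered by shift. Groups do not overlap in any pair, and the shifts run from -1.50 for Suclg2 to Sucla2 to 1.51 for Idh1 to Idh2.

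Levels differed widely between the genes. Per kilobase of principal transcript, the highest in DMSO libraries were Sdhb at 1698 ± 56.4, Idh2 at 1550.2 ± 59.5 and Mdh2 at 1398 ± 58.0 normalised reads, and the lowest were Gpd1l at 33.5 ± 1.99, Me1 at 27.3 ± 5.82 and Me3 at 4.39 ± 1.01 (SD, n = 3). Divided by the length of all annotated exons instead, Idh2 (1045) stood above Sdhb (866), so the order at the top depends on the length used, while the lowest 3 were the same genes. In GSK libraries Idh1 had the highest level per kilobase of principal transcript, at 2019 ± 254, after standing at 931 ± 90.0 in DMSO, where it was close to Cs (921 ± 21.3) and Acly (895 ± 66.6).

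**Figure D4:**
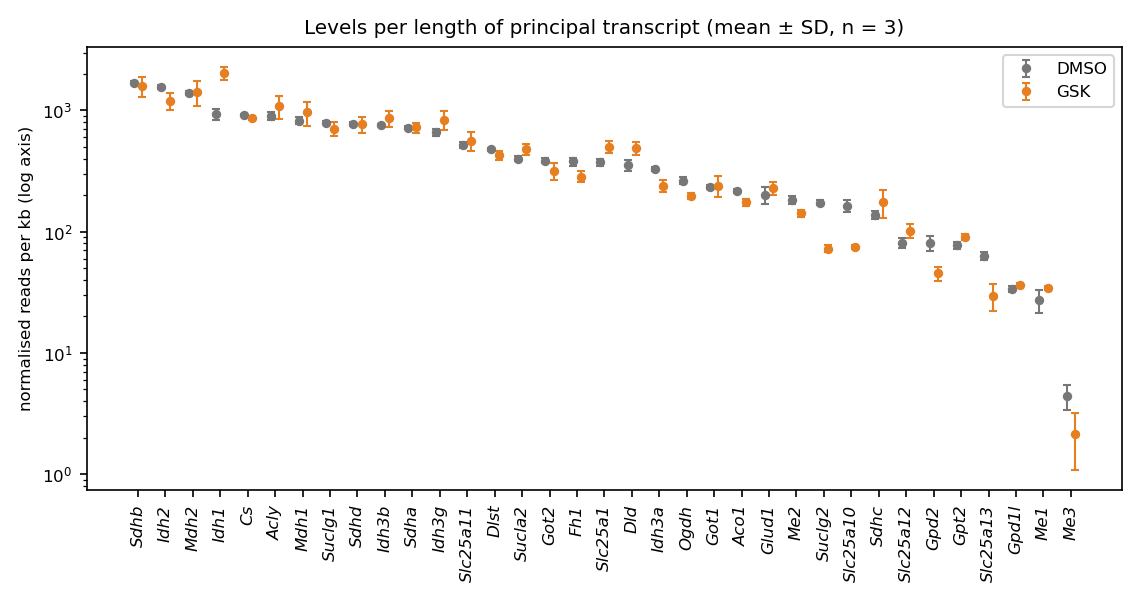
Normalised reads per kilobase of principal transcript (log axis, mean ± SD, n = 3) of the 35 genes in DMSO (grey) and GSK (orange) libraries, ordered by the DMSO level. Idh1 moves from 931 to 2019 and becomes the highest, while Suclg2, Slc25a10, Gpd2 and Slc25a13 drop in the lower range.

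The GSK libraries were not alike for these genes. GSK replicate 1 gave the lowest of the 3 GSK values for 27 of the 35 genes (77.1%), beside 45.7% of all genes tested. Its log2 level lay below the mean of GSK replicates 2 and 3 by a median difference of -0.26 for the list and -0.06 for all genes. Mdh2 was an example, with 1527 normalised reads in that library and 2196 and 2438 in the other GSK libraries. Correspondingly, the median SD of the log2 values was 0.09 in DMSO and 0.18 in GSK libraries for the list, and 0.17 and 0.21 for all genes.

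Without GSK replicate 1, 9 of the 35 genes were higher (25.7%, beside 20.4% of all genes under the same setting) and 11 lower (31.4%, beside 21.4%), in place of 3 and 9. The 12 genes called with all libraries were among these 20, and the 8 that joined were Idh3b, Idh3g, Sucla2, Sdhc, Mdh1 and Slc25a12 as higher and Aco1 and Me3 as lower. Without GSK replicate 2, 1 gene was higher (2.86%, beside 11.6% of all genes) and 7 were lower (20.0%, beside 15.5%), which is 22.9% in all, beside 27.1%. Summed erythroid markers were 187021 normalised reads in GSK replicate 1 against 277543 and 274560 in replicates 2 and 3, and mesenchyme markers 24079 against 15610 and 14351. Their part in the difference between GSK libraries was not tested.

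Other genes around the pathway were read from a list of 48 further genes, of which 44 were tested. Of these, 8 rose and 6 fell (31.8%, beside 36.1% of all genes tested), and the median log2 fold change was 0.06. Among genes of the acetyl-CoA pool, Acss2, for the cytosolic and nuclear acetyl-CoA synthetase, rose from 279 ± 47.6 to 574 ± 87.4 normalised reads, and Acss1, for its mitochondrial counterpart, fell from 912 ± 102 to 212 ± 15.4 (SD, n = 3 per group; log2 fold changes 1.04 and -2.09). Fasn and Acaca of fatty acid synthesis did not pass (0.06 and -0.12).

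At the pyruvate entry, the carrier gene Mpc1 rose (0.73) and the pyruvate carboxylase gene Pcx fell (-0.74), and 5 others, among them the pyruvate dehydrogenase genes Pdha1, Pdhb and Dlat, did not pass. Asns, whose product uses aspartate and glutamine to make asparagine, rose by 1.70 on the log2 scale, and Pck2, for mitochondrial phosphoenolpyruvate carboxykinase, by 0.70. Of 9 genes of glutamine and glutamate supply, Aldh5a1 of the GABA shunt alone passed (11.1%, beside 36.1% of all genes tested), falling by 1.21 on the log2 scale.

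Lipoate is the cofactor attached to the E2 enzymes. Its synthase gene Lias rose (0.57), as did Nfu1 for an iron-sulfur carrier (0.42), while the transferase gene Lipt2 fell (-0.58). Of the 4 succinate dehydrogenase assembly factor genes, 0 passed in limma, edgeR or DESeq2, beside 36.1% of all genes tested in limma. Among them, 1 (Sdhaf2) had an unadjusted p below 0.05 in each tool. Dhtkd1, for a relative of the E1 enzyme, rose (0.81). Among other carriers, Slc25a21 for oxodicarboxylates rose from 9.24 ± 2.20 to 35.1 ± 9.66 normalised reads (1.81), and Slc25a5, for an ADP/ATP carrier, fell from 7062 ± 48.7 to 3670.1 ± 464 (-0.95), while its relative Slc25a4 did not pass (0.07).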

How the data were processed

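For 6 bulk Smart-seq2 libraries the authors deposited a signal per gene, their normalised read count. The submitters' processing notes list STAR, DESeq, GRCm38 and mm10 without saying what each was used for. Read counter, annotation and strand setting: not given in the sources used here. The table repeats each gene on its transcript rows (118098 rows), and 1 row was kept per gene (32285). In every library 100% of nonzero values were whole multiples of 1 step within a tolerance, so whole reads were recovered. The tolerance was 0.01 of a step but widened in proportion to the value at high counts, where the check says little.

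The main test was limma 3.58.1 (R 4.3.3; trended, robust priors) on log2(value + 1) for 15073 genes (mean over libraries 10 or more), group as the only term, Benjamini-Hochberg adjustment at 0.05. This scale understates changes of low genes. On the recovered reads, edgeR 4.0.16 called 2529 genes higher and 3007 lower and DESeq2 1.42.0 called 2401 and 2728, against 2563 and 2883 in limma. The fit was tested on simulated data. It called 77.6% of the genes changed by 1 on the log2 scale and 97% of those changed by 2. Of its 184 calls, 11 were false. Smaller changes were not simulated. Coordinates and lengths are those of GENCODE vM21 (GRCm38), joined on the identifier without its version, since the table carries later versions for most genes. Nnt, listed under 2 identifiers, was left out of the list of further genes.

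All 35 members are accounted for. Those past the threshold are given in every library, and further genes past it are named, except for results not reported here. Members, lists and tests were chosen with earlier results of these data known, and the values of other genes printed per library were chosen after they were seen. Alternatives were other pseudocounts, filters and scalings, both count tools, a replicate block and leaving out each library.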

Additional observations from a re-analysis of the deposited data

How the results depend on the processing

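Of the 12 genes that passed, 6 (Idh1, Idh3a, Suclg2, Slc25a13, Gpd2 and Slc25a10) did so under all 15 alternatives, and 6 (Idh2, Ogdh, Dld, Fh1, Me2 and Slc25a1) lost the call under at least 1 of them. Of the other 23, 14 passed under none and 9 under at least 1. Higher genes numbered 3 of 35, and 1 to 9 with 1 library left out (9 without GSK replicate 1, 1 without GSK replicate 2). Lower genes numbered 9, and 6 to 11 with 1 library left out. With the replicate number as a term (replicate block), 3 were higher and 9 lower. The block changed no call among the 35 genes. Deviations from the group means correlated at 0.01, -0.02 and 0.05 for the replicate numbers 1, 2 and 3, and at -0.07 to 0.07 between different numbers. With 3 libraries a group, these values cannot settle whether the replicate numbers pair the samples. The direction changed in uncalled genes near 0. Sdha was 0.0018 with DESeq2 and -0.061 to 0.0745 with 1 library left out, and Mdh2 was 0.0094 with DESeq2 and -0.15 to 0.19. Got1 was -0.0563 with equal library totals, -0.0036 with TMM scaling and -0.13 to 0.16 with 1 library left out. With 1 library left out, Sdhb was -0.21 to 0.0478, Sdhd -0.11 to 0.10 and Slc25a11 -0.0379 to 0.20. The cause was not tested. The shifts of the 7 isozyme ratios kept their direction with a pseudocount of 10, and stayed within 1 SD. Leaving out any 1 library could not reverse them, because the groups did not overlap in any pair. Nor could it move a mean of 3 values by 1 SD, so that setting is no check on the ratios. With 3 libraries a group and 6 to 25 reads, Me3 is limited by depth.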

Other observations

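Some pairs of genes with related roles were compared after their values were seen, and their ratios are given as values with no test. The log2 ratio of Acss2 to Acss1, the cytosolic and mitochondrial acetyl-CoA synthetase genes, was -1.83, -1.59 and -1.72 in DMSO and 1.13, 1.52 and 1.61 in GSK libraries, so the sign of the ratio differed between the groups in every library. That of Slc25a1 to Slc25a10, the citrate and dicarboxylate carrier genes, was 0.98, 0.80 and 0.96 in DMSO and 2.32, 2.45 and 2.55 in GSK libraries. Between Suclg2 and Suclg1, which encode the beta and alpha subunits of the GTP-forming succinyl-CoA ligase, it was -0.94, -1.15 and -1.02 in DMSO and -1.80, -2.30 and -2.25 in GSK libraries. The ratio of Ogdh to Dlst overlapped between the groups, with -0.42, -0.28 and -0.13 in DMSO and -0.34, -0.54 and -0.69 in GSK libraries.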
